A study of Dendrobaena veneta with 18 samples.

Results

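The comparison described here is the gut of earthworms exposed to the higher dose of carbamazepine against the gut of control worms. The species is Dendrobaena veneta, and reads from its poly(A) RNA were assembled de novo, with no genome as a guide. High dose worms lived for 28 days in topsoil with 10 mg/kg carbamazepine, and control worms in topsoil that had received only the solvent methanol, which had evaporated before use. All worms were adults kept in the dark at 15 °C without added food. The high dose group holds 3 gut libraries (replicates 1, 2 and 3) and the control group 2 (replicates 2 and 3), since control replicate 1 was not analysed here. The measured units are assembled genes, called features, and 45200 of the 243619 features in the tables had at least 10 counts in at least 2 of these 5 libraries. Those 45200 features are the ones compared, and they held at least 98.2% of the counts of each library.

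Carbamazepine is an anticonvulsant that blocks voltage-gated sodium channels in mammals, and it persists in wastewater and in soil amended with sludge. Earthworms take up soil-borne substances through the body wall and through the gut. The gut secretes digestive enzymes and absorbs nutrients, and the chloragogen tissue around it stores and detoxifies. An assembler groups overlapping sequences into components and splits a component into genes, so that variants or fragments of 1 gene can appear as several features. The files pair the features with no gene name, description or sequence, so features are given by identifier without the assembler's prefix, and no marker gene of gut could be looked up.

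The rule for membership lets a feature in through 1 group alone. Of the 45200 features, 27488 had 10 counts in all 5 libraries, while 721 stayed under 10 counts in all high dose libraries and 3977 in both control libraries. At the edge of the rule, 1566 features had 10 to under 11 counts in their second highest library, and 1780 features just outside it had 9 to under 10. With 3 high dose and 2 control libraries, more features could enter through the high dose side.

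Library totals were 12967310, 18285270 and 13859987 counts for high dose 1, 2 and 3, and 13315393 and 13742759 counts for control 2 and 3. High dose 2 was the deepest library and also the most concentrated, with 53.6% of its counts in its 100 most abundant features, against 41.5% and 35.5% in high dose 1 and 3 and 38.3% and 46.0% in control 2 and 3. Nothing in the labels ties a replicate to 1 animal or to a pool, so the p-values below cover the spread among these libraries, which may be technical in part.

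High dose 1 and 3 stood much closer to each other than any other pair. The root mean square difference of log2(CPM + 1) over the features was 0.383 between them, where CPM are counts scaled to a common library total (per 1e6, after TMM scaling). High dose 2 differed from high dose 1 by 0.961 and from high dose 3 by 1.04, and the controls differed from each other by 0.935. Only 9 features had at least 50 counts in one of high dose 1 and 3 and 0 in the other. The same number was 341 and 571 for high dose 2 against high dose 1 and 3, and 604 between the controls. High dose 1 and 3 therefore resemble 2 libraries of 1 worm, and results are also given with the pair averaged to 1 sample.

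The distances between the groups lay within the range of those inside a group. Between high dose and control libraries the root mean square difference ran from 0.879 to 0.986, with a mean of 0.941, inside the range of 0.383 to 1.04 found within groups. The ratio of the mean between groups to the mean within groups was 1.13, and 0.980 with high dose 1 and 3 averaged. Without high dose 1 or high dose 3 it was 0.970 and 0.986, and without high dose 2 it was 1.41. In units of features, 474 to 794 had at least 50 counts in one library and 0 in the other for pairs across the groups. Of the 4 pairs within groups, 2 lay inside that range (571 and 604) and 2 below it (9 and 341).

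**Figure D1:**
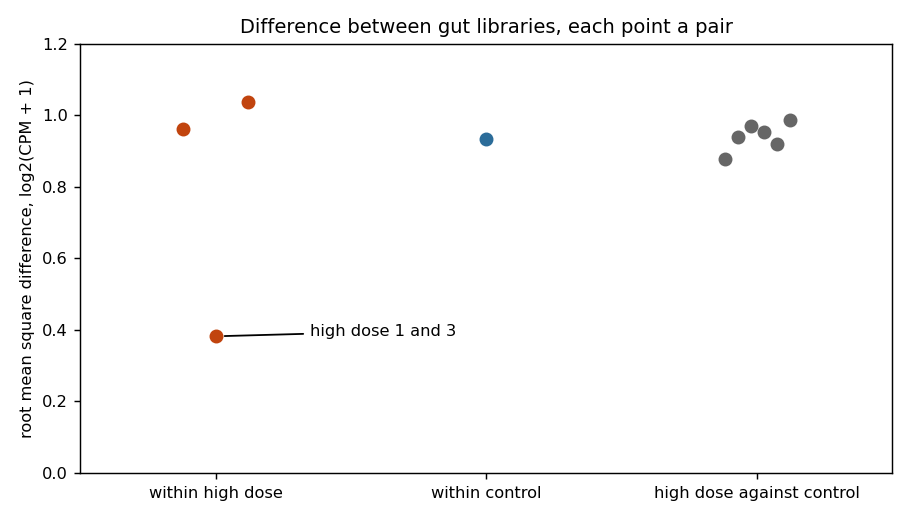
Root mean square difference in log2(CPM + 1) over 45200 features for each pair of gut libraries (points), within high dose, within control and between the groups. High dose 1 and 3 lie at 0.383, and the other pairs within groups (0.935 to 1.04) lie at the level of the pairs between groups (0.879 to 0.986).

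In high dose gut 3 features rose relative to control and 0 fell, which is 0.00664% of the 45200 features tested (edgeR, quasi-likelihood, adjusted p under 0.05). DN89951_c4_g1 had 328, 262 and 336 counts in high dose gut 1, 2 and 3, and 0 in both control guts. Every high dose library was high and both controls were empty. At 22.9 ± 2.55 CPM (SD, n = 3) it stood at least 93.0-fold higher than a control floor of 3 counts per library, with an adjusted p of 0.0396 by edgeR. DN102191_c1_g2 had the same pattern, with 185, 219 and 232 counts in high dose gut against 0 and 0 in control gut. It reached 15.7 ± 1.59 CPM (SD, n = 3), at least 63.9-fold higher, at the same adjusted p of 0.0396 by edgeR.

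DN87472_c3_g2, the third, was chosen after its values were seen and was low in the controls but not empty. It had 145, 131 and 196 counts in high dose gut against 6 and 4 in control gut, with no overlap. The means were 11.5 ± 1.14 CPM (SD, n = 3) in high dose gut and 0.399 ± 0.0365 CPM (n = 2) in control gut, a log2 fold of 4.82 (SE 0.33, adjusted p = 0.0396 by edgeR).

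These 3 features were also high in low dose gut (0.6 mg/kg), a group that is compared with the same controls. The low dose libraries 1, 2 and 3 had 409, 289 and 361 counts of DN89951_c4_g1, then 230, 247 and 198 of DN102191_c1_g2 and 183, 152 and 208 of DN87472_c3_g2. In the cerebral ganglion, the nerve mass above the pharynx, they did not separate the groups. DN102191_c1_g2 had 60, 153 and 58.0 counts in high dose ganglia 1, 2 and 3, against 0, 146 and 0 in control ganglia 1, 2 and 3. DN87472_c3_g2 had 495, 502 and 32 counts in high dose ganglia, against 14, 407 and 21 in control ganglia. Control ganglion 2 stood well above the other control ganglia in both features, at 12.1 CPM of DN102191_c1_g2, above every high dose ganglion, and 33.9 CPM of DN87472_c3_g2. Of the second feature high dose ganglia 1 and 2 had more, 47.0 and 36.2 CPM.

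With high dose 1 and 3 averaged, edgeR called 0 features, and the smallest adjusted p was 0.344. The 3 features then stood at 22.4 ± 2.01, 16.2 ± 1.92 and 11.3 ± 1.12 CPM (SD, n = 2) in high dose gut. Their size hardly moved while the call by edgeR was lost. At an unadjusted p under 0.05 edgeR had 1141 features higher and 806 lower in that fit. With the libraries separate it had 2061 higher (4.56%) and 1452 lower (3.21%), together 7.77% of the features. DESeq2 called 536 higher (1.19%) and 296 lower (0.655%) with the libraries separate, together 1.84%. With the pair averaged it called 229 higher (0.507%) and 169 lower (0.374%), together 0.881%. The 3 features were among these, at adjusted p-values of 4.1e-09, 4.4e-08 and 2.6e-11 by DESeq2. The 3 calls also needed every other library: without control 2, control 3, high dose 1 or high dose 3 edgeR called 0, and without high dose 2, which leaves the close pair alone, it called 25 higher and 2 lower (0.0597%). Among other settings, edgeR called 0.139% with the low dose libraries 1 and 3 kept separate, and limma 0.358% and 0.398% on log2(FPKM + 1) and log2(FPKM + 0.1). Without a filter on low counts edgeR called 2.21% of 146250 features, and 4.61% of the 45200, so the count of calls rests on the method.

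DN106284_c3_g1, chosen after its values were seen, was the next feature in order of p and was found at the high dose alone among guts. It had 691, 805 and 842 counts in high dose gut, 0 and 0 in control gut, and 0 in each of the 3 low dose guts. At 57.8 ± 5.71 CPM (SD, n = 3) it stood at least 235-fold above the control floor, but its adjusted p of 0.0524 by edgeR missed the threshold. In ganglia it had 498, 697 and 562 counts in the high dose libraries, against 0, 454 and 0 in the control libraries. Control ganglion 2 again carried the feature.

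**Figure D2:**
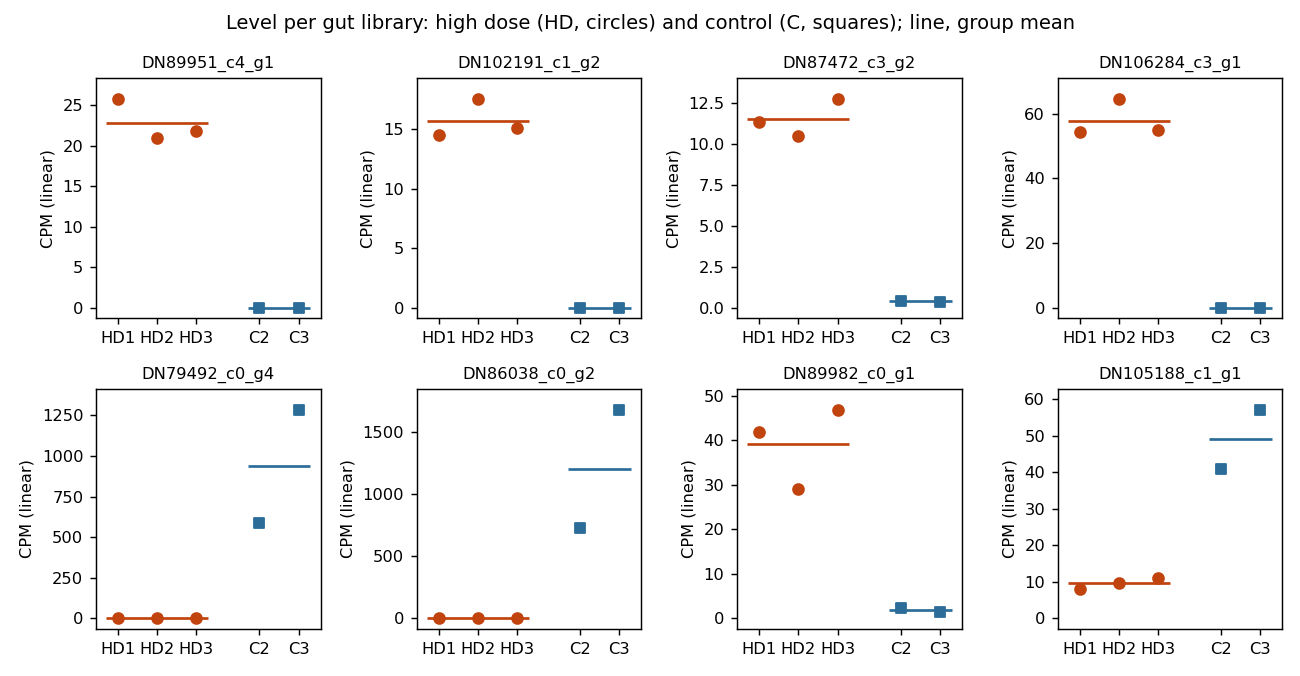
Level in CPM (linear axis, each panel on its own scale) of 8 features in high dose gut libraries (HD1 to HD3, circles) and control gut libraries (C2 and C3, squares), with the group mean as a line. In the upper row all high dose libraries lie above both controls, and in the lower row DN79492_c0_g4 and DN86038_c0_g2 are at 0 counts in all high dose libraries.

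Some features were at 0 in a whole group and had at least 30 counts in every library of the other. The 2 most abundant of them were lower at the high dose, and neither passed the edgeR test. The next in order, DN90208_c3_g2, was higher at the high dose, with a mean of 715 CPM in high dose gut. DN86038_c0_g2 had 0 counts in all 3 high dose guts, against 10300 and 18027 counts in control gut 2 and 3. It averaged 1204 CPM in control gut, at least 5386-fold above the high dose floor of 3 counts per library. DN79492_c0_g4 had 0, 0 and 0 counts in high dose gut and 8313 and 13763 counts in control gut, a mean of 935 CPM and at least 4183-fold above that floor. Both had an adjusted p of 0.0701 by edgeR and so missed the threshold. DESeq2 called both, at adjusted p-values of 1.5e-32 and 1.5e-31, and at 2.5e-21 and 1.0e-20 with high dose 1 and 3 averaged. Limma called both as well, each at an adjusted p of 0.000186 on log2(FPKM + 1) and 0.000102 on log2(FPKM + 0.1). With the pair averaged, edgeR gave each an adjusted p of 0.344, so whether they pass rests on the method.

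Both features were also far below control in the low dose guts, which share these controls, and near 0 in nerve tissue. DN86038_c0_g2 had 10, 17 and 9 counts in low dose gut 1, 2 and 3, and DN79492_c0_g4 had 311, 157 and 273. In ganglia DN86038_c0_g2 had 3, 26 and 24 counts in the high dose libraries against 0, 7 and 6 in the control libraries. DN79492_c0_g4 had 0, 1 and 2 counts in high dose ganglia and 0, 0 and 0 in control ganglia. From counts and FPKM (counts per length and per library total), the lengths implied were 137 and 123 bases, short beside the median of 1169 over the features with a value. Implied lengths may be effective lengths rather than full ones, and that of another abundant gut feature, DN97500_c2_g1, came out at only 23.8 bases. Per such a length the 2 features had 7947 and 6589 FPKM in control gut, values that a small length raises.

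A wider ring of features lay just outside the threshold. At an adjusted p under 0.10 by edgeR there were 18 higher (0.0398%) and 9 lower (0.0199%) at the high dose, and 3 of the 9 averaged over 100 CPM in control gut. Most of the 45200 features were close between the groups, with 78.2% within 2-fold in the fitted values and a median log2 fold of 0.02. The quartiles lay at -0.36 and 0.50. At 4-fold or more, 2800 features were higher (6.19%) and 1095 lower (2.42%), and this imbalance stands beside the unequal entry through the 3 high dose and 2 control libraries given above. High dose and control values did not overlap, with high dose higher, in 5809 features (12.9%), and with high dose lower in 5099 (11.3%), together 24.1%. Both 4-fold and free of overlap were 1666 higher (3.69%) and 857 lower (1.9%).

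**Figure D3:**
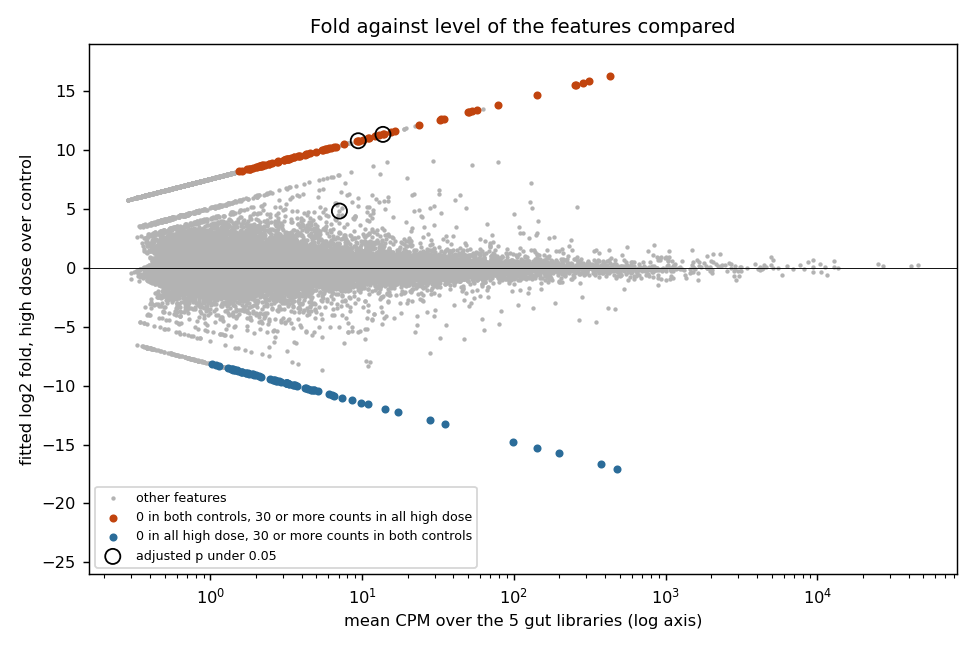
Fitted log2 fold of high dose over control (vertical axis) against the mean CPM over the 5 gut libraries (horizontal log axis) for 45200 features. The 3 features with adjusted p under 0.05 are circled, the 78 coloured points on the upper line are at 0 in both controls and the 69 on the lower line at 0 in all high dose libraries, and there the fitted fold depends on the prior count.

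Features with 10 counts in all 5 libraries were also described on their own, a limit that by its construction leaves out features near 0 in either group. Of these 27488 features 13102 were higher and 14386 lower at the high dose, with a median log2 fold of -0.02. They were 4-fold higher in 102 cases and 4-fold lower in 93, and 5.30% had an unadjusted p under 0.05 by edgeR. The 3 called features, at 0 to 6 control counts, fall outside the limit, and nothing is read from the contrast with all features.

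The features of smallest p within this class were picked after their values were seen, and none passed the adjusted threshold. DN96461_c0_g3 was the most even of them, with 279.7, 264.8 and 280.2 CPM in high dose gut against 46.0 and 44.7 CPM in control gut. The low dose guts stood at 53.5, 57.8 and 53.1 CPM, near the controls. Its log2 fold was 2.60 (SE 0.24, adjusted p = 0.0701 by edgeR), and 2.59 (SE 0.28, adjusted p = 0.344) with high dose 1 and 3 averaged. In ganglia its counts were 2917, 4935 and 2478 in high dose libraries, against 832, 684 and 517 in control libraries, so the groups did not overlap there either.

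DN89982_c0_g1 showed a larger fold and more spread. It stood at 41.8, 29.0 and 46.8 CPM in high dose gut against 2.26 and 1.49 CPM in control gut, and its fitted log2 fold was 4.37 (SE 0.39, adjusted p = 0.0701 by edgeR). High dose ganglia had 619, 809 and 25 counts of it, against 26, 10 and 16 in control ganglia, so the third high dose ganglion lay at the control level. In the other direction, DN105188_c1_g1 stood at 8.09, 9.60 and 11.1 CPM in high dose gut and at 40.9 and 57.0 CPM in control gut. The low dose guts lay between, at 23.6, 24.6 and 21.1 CPM. The log2 fold of high dose over control was -2.35 (SE 0.25, adjusted p = 0.0852 by edgeR).

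Features present on one side and absent on the other were counted as those with at least 30 counts in every library of a group and 0 in every library of the other. By this count 78 features (0.173%) were at 0 in both controls and on in all high dose guts, and 69 (0.153%) were on in both controls and at 0 in all high dose guts. They held 0.308%, 0.404% and 0.336% of the counts of high dose gut 1, 2 and 3, for the 78, and 0.273% and 0.417% of the counts of control gut 2 and 3, for the 69. Patterns of the same kind within a group were more frequent, although they ask for fewer libraries. In high dose gut 496 features were on in libraries 1 and 3 and at 0 in library 2, and 91 the other way round. In control gut 494 were on in library 2 alone and 500 in library 3 alone.

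**Figure D4:**
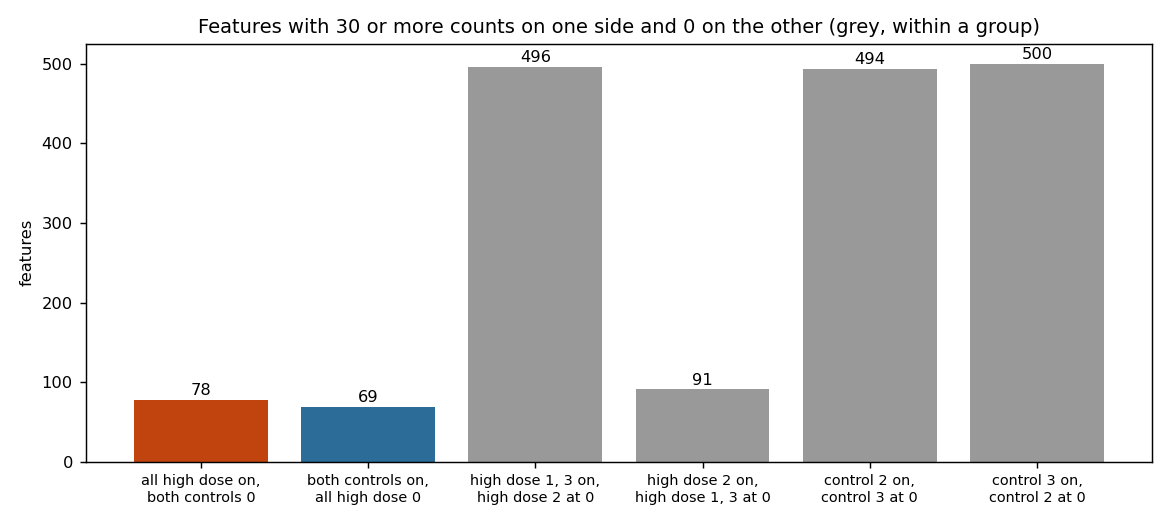
Number of features with at least 30 counts in every library named as on and 0 counts in every library named as 0. The counts that separate the groups (78 and 69) use all 5 libraries, while the grey bars (496, 91, 494 and 500) separate libraries of a single group and use 3 or 2.

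The 78 features on at the high dose were themselves uneven between its libraries. Their median counts were 95.5, 86 and 117 in high dose 1, 2 and 3, but the most abundant of them had 952, 25726 and 180. The next had 11232, 105 and 10515 counts, with the high and low libraries exchanged. Of the 5 most abundant, 3 were highest in high dose 2 and 2 in high dose 1 or 3, and each had at most 7 counts in any ganglion library. DN90208_c3_g2 and DN90208_c3_g4, both highest in high dose 2, share an assembly component, so they may not be separate cases. The adjusted p of these 5 ran from 0.379 to 0.569 by edgeR. Among all 78, 7 averaged over 100 CPM in high dose gut, 2 were called, and 11 had an adjusted p under 0.10 by edgeR. Over all 45200 features 3 were called and 27 had an adjusted p under 0.10. The 78 were chosen by the same counts that were tested, and all 78 had an unadjusted p under 0.05 by edgeR. So nothing is read from their number of calls.

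The 69 features off at the high dose had median counts of 106 and 89 in control 2 and 3. The 3 most abundant (the first 2 are DN86038_c0_g2 and DN79492_c0_g4, and the third had 4456 and 7234 control counts) were each higher in control 3. The fourth had 355 and 7309 counts in the controls, and 0 in high dose gut. It reached 5097 counts in high dose ganglion 3, so it was at 0 in the high dose guts but not in every high dose library. None of the 69 was called by edgeR, and 8 had an adjusted p under 0.10 by edgeR. They too were chosen by the counts tested, and all 69 had an unadjusted p under 0.05 by edgeR.

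Ganglion libraries took no part in choosing these features and gave a reading of them in a second tissue. That reading may not be independent of the choice. High dose ganglia 1 and 2 and control ganglia 1 and 3 followed particular guts used for it, as given below. Of the 78, high dose ganglia 1, 2 and 3 had at least 5 counts in 59, 60 and 29 features, against 1, 35 and 4 features in control ganglia 1, 2 and 3. Over all 45200 features the share with at least 5 counts was 70.8%, 80.1% and 74.8% in high dose ganglia and 73.8%, 74.9% and 72.4% in control ganglia. The 59 and 60 of 78 (75.6% and 76.9%) lie near that share, and the other 4 values lie below it. Of the 69, high dose ganglia had 2, 5 and 28 features, against 28, 15 and 35 in control ganglia, all below the share over all features. High dose ganglion 3 and control ganglion 2 stood apart from the other ganglia of their groups in both sets. In these 2 libraries the 78 features were present in 37.2% at the high dose and 44.9% in the control, and the 69 in 40.6% at the high dose and 21.7% in the control.

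The same 2 ganglia had no close gut partner among the 5 libraries. Of the 496 features on in high dose gut 1 and 3 but at 0 in gut 2, high dose ganglia 1, 2 and 3 had 6.25%, 59.7% and 35.3%. For the 91 of the reverse pattern these shares were 57.1%, 8.79% and 48.4%. Ganglion 2 thus followed gut 1 and 3, ganglion 1 followed gut 2, and ganglion 3 followed neither. Of the 494 features on in control gut 2 but at 0 in gut 3, control ganglia 1, 2 and 3 had 56.5%, 34.8% and 8.70%, and of the 500 of the reverse pattern 6.60%, 26.2% and 51.6%. The part of differences between single libraries in the difference between the groups was not tested.

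**Figure D5:**
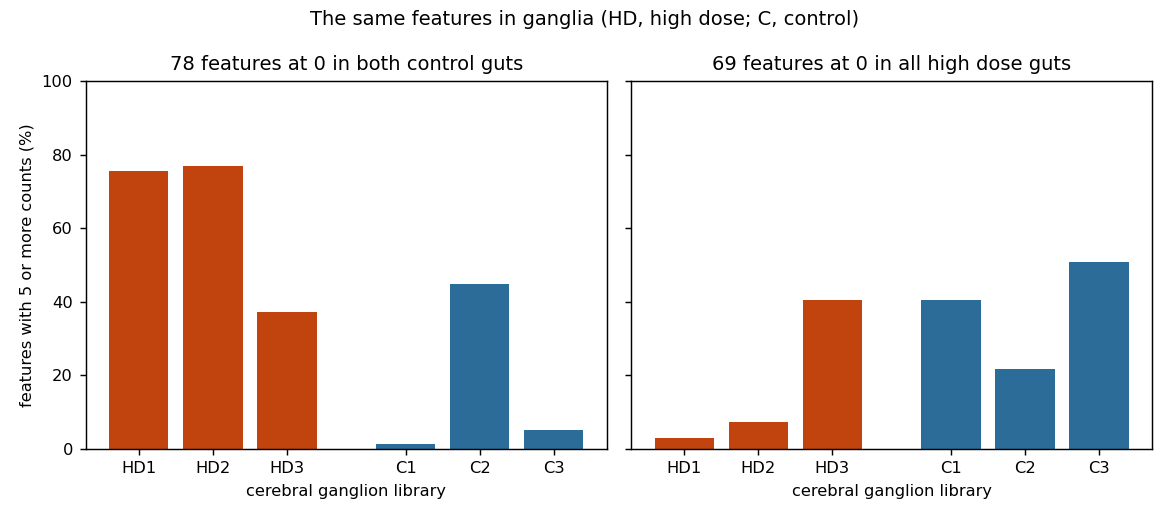
Share of the 78 features at 0 in both control guts (left) and of the 69 at 0 in all high dose guts (right) that had at least 5 counts in each cerebral ganglion library, high dose (HD1 to HD3) and control (C1 to C3). High dose ganglion 3 and control ganglion 2 differ from the other ganglia of their groups, at 37.2% and 44.9% of the 78.

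Many of these features share an assembly component with others. Of all 45200 features, 25994 were the only compared feature of their component. Of the 78 on at the high dose, 48 had another compared feature in their component, and for 28 such a feature had at least 10 counts in both control guts. Of the 69 off at the high dose, 45 had a partner, and for 25 a partner had at least 10 counts in all high dose guts. When the counts of each component were summed, 11 of the 78 and 14 of the 69 lay in a component whose total was within 2-fold between the groups.

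Of 34300 components with summed counts, edgeR called 11 higher (0.0321%) and 3 lower (0.00875%) at the high dose, together 0.0408%. Of the 14, 10 consist of 1 feature and 10 hold one of the 78 or 69 on or off features. Only 1 holds a feature that was called on its own, DN89951_c4_g1. The components of DN102191_c1_g2 and DN87472_c3_g2 were not called. The component of DN86038_c0_g2 and that of DN79492_c0_g4, each with no other compared feature, are both among the 3 lower ones, at an adjusted p of 0.0459 by edgeR. The third, DN97088_c0, sums 4 features and had 40, 90.0 and 73.0 counts in high dose gut, against 4513 and 7286 in control gut. It was named after its values were seen. Both the number of units and the fit differ from those per feature, and what moved the adjusted p was not tested.

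The difference between high dose and control gut was set against that in the cerebral ganglion by a test of the difference itself. All groups of both tissues were in the fit, which treats gut and ganglion libraries as independent. The labels name no worm, so libraries of 1 worm in both tissues could not be modelled as pairs. Some ganglia followed particular guts, as given above, and the p-values of this test do not allow for that. By edgeR 1 feature had a more negative difference in gut than in the ganglion (0.00221% of 45200) and 0 a more positive one, with 1046 features (2.31%) at an unadjusted p under 0.05, 409 of them more positive in gut. DESeq2 called 23 more positive and 26 more negative, together 0.108%, and 0.0509% with gut high dose 1 and 3 averaged. With limma on log2(FPKM + 1) and log2(FPKM + 0.1) the share was 0.235% and 0.17%. Without a filter edgeR called 0.339% of 179019 features and 0.865% of the 45200. The feature was DN86038_c0_g2, with the 0 high dose and 10300 and 18027 control counts in gut given above and at most 26 counts in the ganglia of these groups. Its fitted log2 difference of gut minus ganglion was -18.98 (SE 1.66, adjusted p = 0.00590 by edgeR), a value that depends on the prior count because high dose gut is at 0. With gut high dose 1 and 3 averaged it was called at an adjusted p of 0.0293 by edgeR. Without ganglion control 3 its adjusted p was 0.0587, and in a fit without the low dose libraries it was 0.293, so the call was lost in both.

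Other features named by order of p in this test did not pass by edgeR. DN74933_c1_g1 had 5175, 6774 and 3735 counts in high dose gut and 10010 and 9930 in control gut, against 5, 19 and 14 counts in high dose ganglia and 1, 1 and 0 in control ganglia (adjusted p = 0.580 by edgeR). DN79492_c0_g4, described above, also had an adjusted p of 0.580 by edgeR. DN106790_c0_g1 had 15, 20 and 38 counts in high dose gut and 1 and 1 in control gut. In high dose ganglia it had 186, 141 and 154 counts, against 182, 127 and 98 in control ganglia. DN96792_c1_g1 had 57, 13 and 53 counts in high dose gut and 5 and 2 in control gut. Its ganglion counts were 144, 217 and 108 at the high dose and 378, 197 and 220 in control. Neither of these passed the test by edgeR, with adjusted p-values that round to 1. DESeq2 called DN79492_c0_g4, DN74933_c1_g1 and DN96792_c1_g1, at adjusted p-values of 1.6e-15, 0.00987 and 0.00974, but not DN106790_c0_g1 (0.235). With gut high dose 1 and 3 averaged DESeq2 gave them 1.3e-12, 0.0264, 0.105 and 0.417. Limma on log2(FPKM + 1) called DN79492_c0_g4 and DN74933_c1_g1, at 2.0e-08 and 0.0400. On log2(FPKM + 0.1) it called DN79492_c0_g4 alone among them, at 1.5e-05. So these calls rest on the method.

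Features restricted to one tissue were taken from low dose libraries, which are outside the comparison. Gut-restricted features had at least 20 CPM in every low dose gut and at least 20 times the highest low dose ganglion value. These 585 features held 41.0%, 50.8% and 31.3% of the counts in high dose gut 1, 2 and 3, against 38.7% and 44.9% in control gut 2 and 3. The control range lies within the high dose range, and the means were 41.1% ± 9.76 (SD, n = 3) and 41.8% ± 4.38 (n = 2). In high dose and control ganglia the same features held at most 0.0751% of the counts, so the labelled tissues were distinct. An exact two-sided permutation test of 3 against 2 libraries cannot go below 0.2, and no such test was run.

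The gut-restricted features lay in both directions, with more of them lower at the high dose. Of the 585, 263 were higher and 322 lower, against 23425 higher and 21775 lower of all features. None of the 585 was called by edgeR. Their median log2 fold was -0.04, and that of all features 0.02. At an unadjusted p under 0.05 there were 7 higher (1.2%, against 4.56% of all features) and 18 lower (3.08%, against 3.21%). Their groups did not overlap for 28 higher (4.79%, against 12.9% of all features) and 51 lower (8.72%, against 11.3%). The median SD of log2(CPM + 1) in this class was 0.798 in high dose and 0.459 in control gut, against 0.335 and 0.318 over all features. In bulk tissue, fewer cells of a type and less RNA per cell cannot be told apart. The 2417 features common to both tissues, at 20 CPM or more in every low dose library, had a median log2 fold of 0.00, and their groups did not overlap for 294 higher (12.2%) and 232 lower (9.60%), near the 12.9% and 11.3% of all features.

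The 102 ganglion-restricted features, defined by the same limits in the opposite direction, took a small share of gut counts. It was 0.0377%, 0.0762% and 0.0436% in high dose gut 1, 2 and 3, against 0.0411% and 0.0341% in control gut 2 and 3. High dose 2 stood above the rest, and high dose 1 lay between the controls. Of these features 72 were higher and 30 lower at the high dose, none of them called by edgeR, and their median log2 fold was 0.75. Their groups did not overlap for 23 higher (22.5%, against 12.9% of all features) and 7 lower (6.86%, against 11.3%). By their definition these features are low in gut. The 9843 features under 1 CPM in low dose gut leaned the same way, with 16.6% higher and 8.66% lower free of overlap and a median log2 fold of 0.28. The part of low level in this lean was not tested.

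The most abundant gut-restricted feature and the most abundant common one overlapped between the groups. DN78240_c1_g1, the gut-restricted feature of highest FPKM in low dose gut, had 84418, 94868 and 54559 FPKM in high dose gut, against 58674 and 75961 FPKM in control gut. The control values lie inside the high dose range, and the log2 fold was 0.27 (SE 0.74, adjusted p = 0.991 by edgeR). The low dose guts stood lower, between 34341 and 43981 FPKM. DN76330_c0_g1, the most abundant feature common to both tissues, had 19946, 28850 and 23952 FPKM in high dose gut and 15649.5 and 28351.5 FPKM in control gut. DN76090_c0_g1, the next common feature in that order, had 2677, 2938 and 2744 CPM in high dose gut and 3532 and 3125 CPM in control gut, with no overlap. In FPKM its groups overlapped, at 8465, 6533 and 9783 in high dose gut and 12123 and 8004 in control gut, and its log2 fold was -0.26 (SE 0.36, adjusted p = 0.968 by edgeR). The highest class by level in low dose gut held 73 features. Their groups did not overlap for 6 higher (8.22%, against 12.9% of all features) and 2 lower (2.74%, against 11.3%). The features named in this paragraph were picked by their order of FPKM in low dose gut after values were seen.

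Spread within a group varied with level in both groups. By mean CPM in low dose gut, the median SD of log2(CPM + 1) was 0.433 in high dose and 0.355 in control gut for the 9843 features under 1 CPM. For the 10111 features at 10 to 100 CPM it was 0.255 in high dose and 0.271 in control gut. For those 73 features it was 0.611 in high dose and 0.423 in control gut. The median log2 fold was 0.28 under 1 CPM and between -0.04 and 0.08 in the 4 higher classes, and all 3 called features lie at 10 to 100 CPM.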

How the data were processed

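RNA was measured in gut and cerebral ganglion of Dendrobaena veneta, and 17 of the 18 labelled samples have a column. Per the labels, reads were assembled de novo, and CASAVA and DESeq2 are the tools in the submitters' processing notes. Which program counted is not given in the sources used here. Expected counts per assembled gene, not scaled between libraries, and FPKM values are what the authors deposited. Of the count values 99.5% were whole.

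Expected counts were rounded and tested with edgeR 4.0.16 (limma 3.58.1, R 4.3.3) by its two-sided quasi-likelihood test, with TMM factors, 1 coefficient per group and Benjamini-Hochberg adjustment over 45200 features. A call is an adjusted p under 0.05. The gut fit held 7 samples (4 residual degrees of freedom, biological coefficient of variation 60.0%), with low dose gut included to share the spread and its libraries 1 and 3 averaged because they nearly coincide. The fit over both tissues held 16 samples. Values per feature are CPM of the TMM-scaled total. TMM factors ran from 0.691 to 1.12. SE is the fold over the square root of F. Floors of 3 counts cover counting error only. Alternatives included DESeq2 1.42.0 and limma on log2(FPKM + 1) and log2(FPKM + 0.1).

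The rule names, per comparison and direction, no more than 2 called features (those of smallest adjusted p), and where fewer than 2 were called, the 2 of smallest p not called. The members, lists and tests were chosen with earlier results of these data known. The edgeR step was tested on simulated data. Implied lengths assume the library total as the FPKM denominator and may be effective lengths.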

Additional observations from a re-analysis of the deposited data

Results flagged for a closer look

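DN86038_c0_g2 was flagged because its difference between high dose and control was itself different in gut and ganglion, by the edgeR test of that difference. It had 0 counts in each of the 3 high dose guts and 10300 and 18027 in the control guts, while ganglia had 3, 26 and 24 counts at the high dose and 0, 7 and 6 in control. The log2 difference of gut minus ganglion was -18.98 (adjusted p = 0.00590 by edgeR). The test treats gut and ganglion libraries as independent, although some ganglia followed particular guts. Over its 22 alternatives the adjusted p reached 0.293, in the fit without the low dose libraries, and it was 0.0587 without ganglion control 3.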

How the results depend on the processing

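The number of features called between high dose and control gut, 3 by edgeR, was 3 as well with RLE scaling and with edgeR's own filter, and these were the same 3 features. It was 0 with gut high dose 1 and 3 averaged, 0 in a fit of the high dose and control guts alone (3575 at an unadjusted p under 0.05) and 0 to 27 when 1 library was left out. It rose to 14 components with summed counts, 63 with the low dose pair separate (36 higher, 27 lower), 162 with limma on log2(FPKM + 1) (67 higher, 95 lower), 180 with a pseudocount of 0.1 (104 higher, 76 lower), 832 with DESeq2 and 398 with DESeq2 and the high dose pair averaged. Without a filter on low counts edgeR called 3228 (1553 higher, 1675 lower), of which 2084 were among the 45200 features, and the cause was not tested. So which direction held more calls depended on the setting. Each of the 3 called features kept its direction in all 16 of its alternatives, lost its call in 7, and had an adjusted p of at most 0.347. The summed components are not among these 16.

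Adding the replicate number as a block, with the low dose pair separate, gave 0 calls by edgeR in gut, with 3558 at an unadjusted p under 0.05. The same-number libraries of high dose and control correlated at -0.0839 and -0.0772 in their deviations from the group means. With 2 controls the deviations of the controls mirror each other, so these values rest on 1 contrast. They cannot show whether same-number libraries share more than a number. In the test of gut against ganglion the block left the count at 1. That count, 1 in the edgeR test, was 0 with only the groups compared, 0 to 1 when 1 library was left out (0 without ganglion control 3), 49 with DESeq2, 23 with DESeq2 and the pair averaged, 106 and 77 with limma at pseudocounts of 1 and 0.1, and 607 without a filter, 391 of them among the 45200.

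Features at 0 in both controls numbered 241 with at least 10 counts in high dose gut and 26 with at least 100, and 86 to 329 when 1 library was left out, the highest without high dose 2, against 192 without control 2 and 187 without control 3. Those at 0 in all high dose guts numbered 176 and 24, and 70 to 104 (the highest without high dose 2). The difference in the share of gut-restricted features, -0.777 points, ran from -5.67 to 4.09 when 1 library was left out and was 1.67 with the pair averaged, so its sign is not fixed. These moves are under the high dose SD of 9.76, and the largest exceed the control SD of 4.38. The distance ratio of 1.13 ran from 0.970 to 1.41 when 1 library was left out, on both sides of 1, and has no replicate spread of its own. The alternatives added after seeing the data are the pair averaged for values without a test, and those that leave out a library there, the unfiltered count over the 45200 features, and DESeq2 with the pair averaged.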
